A study of Homo sapiens with 8 samples.

Results

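The loci of 6 Hedgehog pathway genes, SHH, GAS1, PTCH1, HHIP, GLI2 and GLI3, were examined in 2 lists of accessible sites that the authors made from ATAC-seq, an assay that marks open DNA by where the Tn5 transposase cuts and tags it. A site belonged to a locus when its centre lay in a fixed interval named for the gene on hg19. The intervals were 155.0 to 156.7 Mb on chromosome 7 for SHH, 89.0 to 90.0 Mb on chromosome 9 for GAS1 and 97.9 to 98.6 Mb on chromosome 9 for PTCH1. They were 145.3 to 145.9 Mb on chromosome 4 for HHIP, 121.2 to 121.9 Mb on chromosome 2 for GLI2 and 41.8 to 42.5 Mb on chromosome 7 for GLI3. Of 14191 listed sites, 55 were members, in 5.4 Mb of intervals.

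The study used H9, an established human embryonic stem cell line, in 8 samples that form 4 groups of 2. Wild-type cells were taken at day 0, before differentiation, and at day 7, when BMP4 (5 ng/ml) together with retinoic acid (1 uM) had been given to turn them into surface ectoderm, the simple epithelium from which epidermis arises. Both agents are called morphogens here. Cells of genotype p63-/-, which lack the epithelial transcription factor p63, got the same agents and were also harvested at day 7. A TetO:Tp63+/- line got doxycycline (2 ug/ml) for 2 days without morphogens, and no list analysed here is attached to it. The labels do not say whether the knockout is 1 clone or whether the 2 replicates of a group are separate cultures. The first list, of 8154 "opened" sites, is attached to the wild-type samples at both days, and its name says that morphogens open its sites. The second, of 6037 "p63-closed" sites, is attached to the wild-type and knockout samples at day 7, and its name says that morphogens open and p63 closes its sites. The directions are the authors'. A change in the share of cells with an open site and a change in how open it is in each cell cannot be told apart in such bulk samples. The lists hold no value per sample, so nothing below is tested between cultures, and the cell identity of the samples was not checked by marker genes.

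Hedgehog ligands are secreted proteins that relieve a block. In their absence the membrane protein PTCH1 keeps the transducer Smoothened inactive, and GLI proteins are processed into repressors. When a ligand such as SHH binds PTCH1, helped by coreceptors such as GAS1, Smoothened signals and GLI activators form. PTCH1 and HHIP are both targets of the pathway and limit it. In skin, SHH from epithelial placodes drives the growth of hair follicles, and SHH and its pathway genes are known for enhancers that lie far from the gene.

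The 6 loci together held 27 opened and 28 p63-closed sites, so that 50.9% of their sites were p63-closed (95% interval 37.1 to 64.6%), beside 42.5% of all listed sites. The loci differed in which list filled them. The SHH locus held 13 opened and 2 p63-closed sites, and the PTCH1 locus 5 and 2. The order was turned in the GAS1 locus, with 5 opened and 13 p63-closed sites, in the GLI3 locus, with 1 and 6, and in the HHIP locus, with 2 and 4. For HHIP this did not hold with the interval widened by 100 kb on each side, which gave 5 opened and 4 p63-closed sites. The GLI2 locus held 1 of each. The intervals of the shares are wide, and sites that lie together are not independent. Because the loci were proposed with counts of both lists in view, the shares describe them and were not tested between loci. That of SHH (1.66 to 40.5%) and that of GAS1 (46.5 to 90.3%) did not overlap. That of GLI3 (42.1 to 99.6%) also lay above that of SHH, and those of PTCH1, HHIP and GLI2 overlapped both. These separations do not hold in every setting. With the loci narrowed by 100 kb on each side, the interval of SHH was 0.253 to 44.5% and that of GAS1 38.4 to 88.2%. With sites of 1 list within 10 kb joined, they were 2.09 to 48.4% and 41.3 to 89.0%, and that of GLI3 was 19.4 to 99.4%. In both settings the intervals of SHH, GAS1 and GLI3 overlapped and took in the share over all listed sites. The pooled share is a mixture of these. With the SHH locus left out it was 65.0% (95% interval 48.3 to 79.4%). With the GAS1 locus left out it was 40.5% (24.8 to 57.9%), and these 2 intervals overlap. Leaving out 1 of the other loci gave 45.8 to 54.2%.

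**Figure D1:**
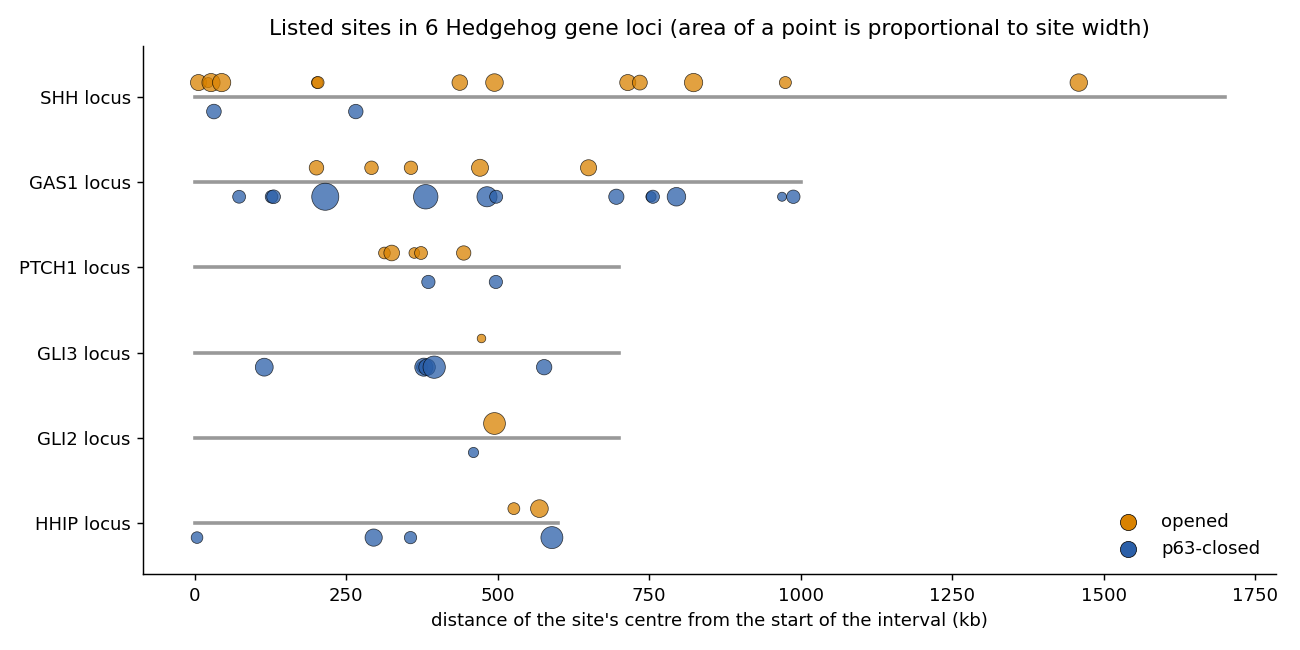
Position of each of the 55 sites, as distance of its centre from the start of its interval (x axis, kb), with 1 grey line per locus as long as its interval. Opened sites are above the line and p63-closed sites below, and the area of a point is proportional to the site's width. Opened sites run along the SHH locus, where both p63-closed sites lie within 266 kb of the start, while p63-closed sites run along the GAS1 locus and gather in the GLI3 locus.

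**Figure D2:**
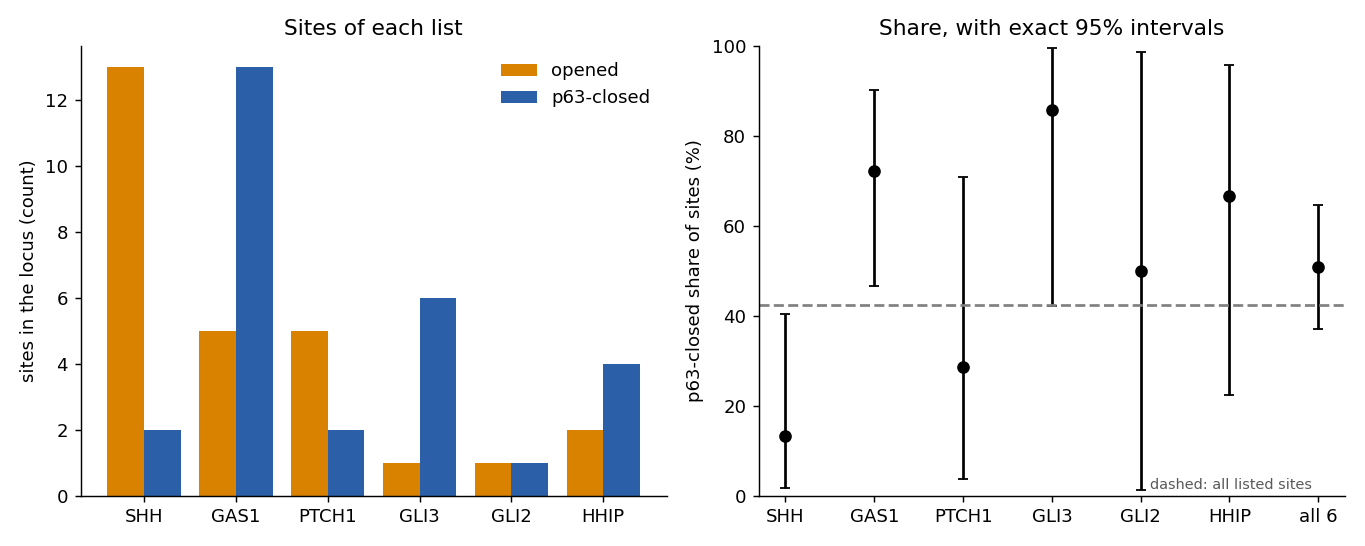
Left, number of opened and p63-closed sites in each locus (bars, count). Right, p63-closed share of the sites (points, %) with exact 95% intervals, for each locus and all 6 together, and the share over all listed sites as a dashed line (42.5%): SHH, at 13.3%, has its whole interval under the line and GAS1, at 72.2%, above it, which was not so with narrowed loci or joined sites.

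Densities were set beside those of the lists as a whole, in units of catalogue entries, the numbered regions from which both lists appear to be drawn. The catalogue itself was not seen, and its total of 1830304 entries was inferred from the numbers of the listed sites. Of these entries, 0.445% were opened sites and 0.33% p63-closed sites. The unit gives values close to those by length. Opened density of the 6 loci was 1.71-fold that of all chromosomes by entries and 1.79-fold per Mb, and p63-closed density 2.40-fold and 2.51-fold. The 3536 entries of the 6 loci held opened sites at 7.64 per 1000 (95% interval 5.03 to 11.1), beside 4.46 over all chromosomes. They held p63-closed sites at 7.92 per 1000 (5.26 to 11.4), beside 3.30. The loci were proposed with such counts in view, so these values describe them and were not tested.

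**Figure D3:**
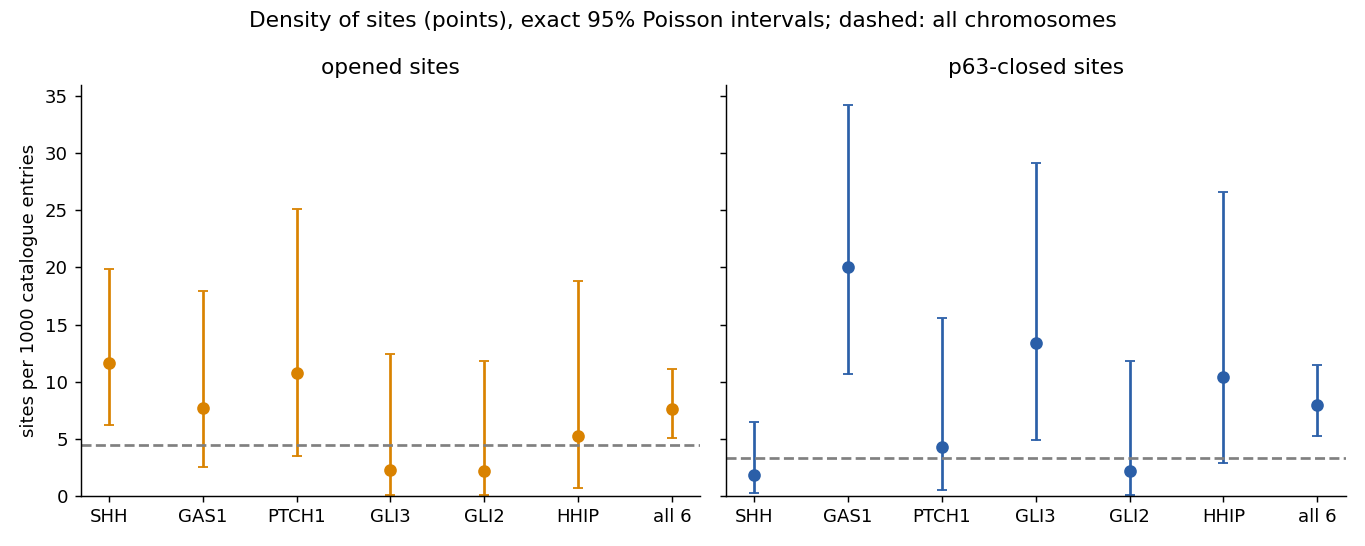
Opened (left) and p63-closed (right) sites per 1000 catalogue entries in each locus and in all 6 together (points), with exact 95% Poisson intervals that cover counting error only and the density over all chromosomes as dashed lines. The interval of the SHH locus lies above the line for opened sites, and those of the GAS1 and GLI3 loci lie above it for p63-closed sites. These intervals count sites that lie together as independent. With sites of 1 list within 10 kb joined, SHH kept 10 opened sites, GAS1 11 p63-closed sites and GLI3 3. Narrowing by 100 kb on each side left SHH 9 opened sites. Density intervals were not computed for these counts, so the separations are not shown to hold there.

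SHH encodes the ligand. Its locus had 13 opened sites where the overall density gives 4.98, a 2.61-fold density (95% interval 1.39 to 4.46), and 2 p63-closed sites where it gives 3.69. Of 1766 windows of the same length laid along all chromosomes, 2.72% held at least 13 opened sites, and the median window held 4. At least 2 p63-closed sites were held by 65.9%. The stretch of equal length before the interval had 4 opened and 1 p63-closed site and that after it 7 and 0, so opened sites prevailed on both sides too. In the GRCh38.p14 gene table the protein-coding neighbours of SHH are RBM33, and CNPY1 beyond it, on one side, and RNF32, and LMBR1 beyond it, on the other. LMBR1 is known for an intron that holds the limb enhancer of SHH. Where these genes lie among the hg19 sites was not determined.

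The sites of the SHH locus form a tight group at the start of the interval and a long sparse series after it. The first group has 4 opened sites, at chr7:155005152-155007153, chr7:155021726-155022504, chr7:155025531-155028063 and chr7:155043059-155045611. Among them lies a p63-closed site at chr7:155030757-155032403, which is 2693 bp from the opened site before it, the closest approach of the lists in the 6 loci. After 156 kb without a site come the opened sites chr7:155201499-155202514 and chr7:155202699-155203846. These are 184 bp apart and carry consecutive catalogue numbers, 1239263 and 1239264, the single such pair among the 49 pairs of neighbours within the 6 loci. Over all chromosomes, 384 of 14168 pairs of neighbours carry consecutive numbers. The other p63-closed site, chr7:155264973-155266578, follows 61.1 kb later.

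From there to the end of the interval every listed site of the SHH locus was opened. This run has 7 sites over 1024 kb. Its first pair is chr7:155436431-155438300 and chr7:155493447-155495826, and its second, 218 kb on, is chr7:155713646-155715634 and chr7:155733710-155735416. Then come single sites at chr7:155821937-155824514, the widest of the locus at 2578 bp, at chr7:155974197-155975312 and, after an empty stretch of 483 kb, at chr7:156457834-156460175. The run does not end with the interval. It continues to chr7 position 158906628, for 22 opened sites over 3470 kb with no p63-closed site between them. The last opened site of the locus is 1193 kb from the nearest p63-closed site.

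GAS1 encodes a membrane-anchored coreceptor that binds SHH. Its locus was the fullest, with 18 sites in 1.0 Mb. It had 13 p63-closed sites where the overall density gives 2.14, a 6.07-fold density (95% interval 3.23 to 10.4). Of 3014 windows of 1.0 Mb, 6 (0.199%) held at least 13 p63-closed sites, and the median window held 1. Its 5 opened sites compare with 2.89 at the overall density, and 18.4% of windows held as many. The neighbouring stretches differed from each other, with 1 opened and 1 p63-closed site before the interval and 6 of each after it. In the gene table, TUT7 and DAPK1 are the nearest protein-coding genes on the 2 sides of GAS1.

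In the GAS1 locus both lists interleave over the first 650 kb, and p63-closed sites alone fill the rest. The first 3 sites are p63-closed, at chr9:89072543-89073818, chr9:89126101-89127326 and chr9:89129319-89130763, with 1992 bp between the last 2 of them. Then the lists alternate. Opened sites lie at chr9:89200050-89201666, chr9:89290968-89292369, chr9:89356088-89357464, chr9:89469612-89471837 and chr9:89648914-89650908. Of these, 4 of 5 have a p63-closed site within 50 kb, while none of them has another opened site within that distance. Over all listed opened sites the shares are 22.0% and 40.3%. On 5 sites the intervals are wide, 28.4 to 99.5% and 0 to 52.2%. The locus also has a 6.07-fold density of p63-closed sites, and nearness beyond that density was not tested.

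The p63-closed sites between them include the widest in the 6 loci. The site chr9:89212529-89218145 is 5617 bp wide and ranks 2 by width among all 6037 p63-closed sites, of which the widest has 5624 bp. The site chr9:89378875-89383459, at 4585 bp, ranks 8, and chr9:89480742-89483845, at 3104 bp, ranks 192. The last of these lies 8904 bp from an opened site, the closest approach of the lists in this locus, and 12.9 kb before the p63-closed site chr9:89496757-89498058. The final run has 6 p63-closed sites over 294 kb. It starts at chr9:89694888-89696669 and goes on through chr9:89752522-89753324, chr9:89755381-89756713, chr9:89793663-89796303 and chr9:89968939-89969567 to chr9:89987193-89988578. With the sites just beyond the interval the run has 8 sites. Width is uneven in the locus, since the median of its p63-closed sites, 1386 bp, is under that of the whole list, 1531 bp.

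PTCH1 encodes the receptor that SHH binds, and its own transcription rises with pathway activity. Its locus had 5 opened and 2 p63-closed sites where the overall densities give 2.07 and 1.53. At least 5 opened sites were held by 9.81% of 4312 windows of the same length, and at least 2 p63-closed sites by 34.2%. All 7 sites lie within 185 kb, and the first 312 kb of the interval hold none. The first 4 are opened, at chr9:98212495-98213553, chr9:98224100-98225986, chr9:98261869-98262744 and chr9:98272763-98274040. The next is p63-closed, at chr9:98284870-98286230, and lies 10.8 kb from the last of them. An opened site at chr9:98343038-98344623 and a p63-closed site at chr9:98396259-98397603 close the series. The sites here are narrow: 1 of the 5 opened sites (1887 bp) and 0 of the 2 p63-closed sites exceed the median width of their list. The gene table places FANCC and ERCC6L2 beside PTCH1.

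HHIP encodes a membrane protein that binds Hedgehog ligands and so withholds them from PTCH1. Its locus had 4 p63-closed sites where the overall density gives 1.27, and 9.38% of 5033 windows of this length held as many. It had 2 opened sites where the density gives 1.71, and 42.1% of windows held as many. The p63-closed sites stand far apart, at chr4:145303191-145304234, chr4:145594086-145596364, chr4:145655454-145656621 and chr4:145887544-145891254. None of the 4 has another p63-closed site within 50 kb. The fourth is 3711 bp wide, rank 44 in its list, and follows the opened sites chr4:145826065-145827150 and chr4:145867607-145870010 with 17.5 kb to the nearer of them. The counts here depend most on where the interval ends. The first p63-closed site lies just inside it, an opened site at chr4:145297766-145298856 just outside, with its centre 1.69 kb from the edge, and the stretch before the interval held 4 opened sites and 0 p63-closed sites. The stretch after it held 0 opened and 2 p63-closed sites.

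The GLI proteins carry the signal into the nucleus. GLI2 is the main activator, and GLI3 acts chiefly as a repressor when no ligand is present. The GLI2 locus had 1 opened and 1 p63-closed site, where the overall densities give 2.10 and 1.55. The median window of this length also held 1 opened site, and the median for p63-closed sites was 1 as well. Of 4312 windows of this length, 46.4% held 2 sites or fewer. Its p63-closed site, chr2:121658609-121659416, is 808 bp wide, and 31.9 kb on lies its opened site, chr2:121691354-121694997. The latter, at 3644 bp, is the widest opened site of the 6 loci and ranks 115 among 8154. The nearest other opened site is 690 kb from it, and the nearest other p63-closed site is 780 kb from its neighbour. In the gene table GLI2 stands between INHBB and TFCP2L1.

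The GLI3 locus, on the same chromosome as SHH, held mostly p63-closed sites. It had 6 p63-closed sites where the overall density gives 1.48, a 4.06-fold density (95% interval 1.49 to 8.83), and 1 opened site where it gives 2.00. At least 6 p63-closed sites were held by 3.92% of 4312 windows of the same length. In the gene table GLI3 lies between INHBA and C7orf25. Of its p63-closed sites, 4 form a tight group, at chr7:42174820-42175802, chr7:42176769-42179272, chr7:42182343-42184452 and chr7:42193247-42197063, with gaps of 966, 3070 and 8794 bp. The fourth is 3817 bp wide, rank 37 among p63-closed sites. Joining sites of 1 list within 10 kb makes these 4 a single region and leaves 3 p63-closed sites in the locus.

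The other p63-closed sites of the GLI3 locus are chr7:41913439-41915890, 259 kb before the group, and chr7:42375725-42377543. The opened site, chr7:42271841-42272403, lies between the group and the last of these. It is 563 bp wide, the narrowest of the 55 sites, and the nearest other opened site is 2241 kb away. The p63-closed run that ends with the group begins before the interval. From chr7 position 40634318 to 42197063 there are 13 p63-closed sites with no opened site between them. After the opened site, 4 p63-closed sites follow up to position 43379262, of which the first is a member. The stretches of equal length on the 2 sides of the interval held 4 and 1 p63-closed sites and 0 opened sites.

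Width was then compared over the 6 loci, since the lists give no other measure of a site. The median was 1707 bp for opened members and 1597 bp for the whole list. It was 1526 bp for p63-closed members and 1531 bp for that list. The middle of the distribution was thus close to that of the lists, with 15 of 27 opened and 14 of 28 p63-closed members above the list's median. At the upper end, 10 of 28 p63-closed members were wider than the upper quartile of their list (2005 bp), and 8 of 27 opened members wider than that of theirs (2063 bp). The widest 1% of the p63-closed list took in 4 of the 28 (14.3%): 2 in the GAS1 locus and 1 each in the GLI3 and HHIP loci. The widest 1% of the opened list took in 0 of the 27. The widest opened member, of 3644 bp in the GLI2 locus, ranks 115 among 8154. This 1% limit was chosen after the widths had been seen.

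**Figure D4:**
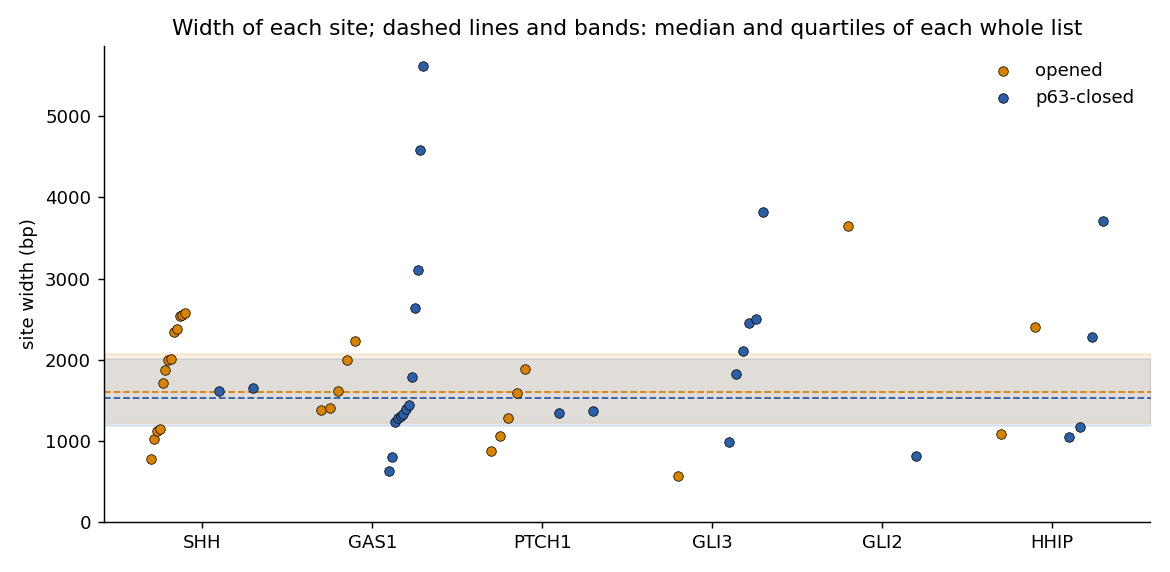
Width of each of the 55 sites by locus (y axis, bp), opened on the left and p63-closed on the right of each locus name, with the median of each whole list as a dashed line and its quartiles as a band. The p63-closed sites of 5617 and 4585 bp (GAS1 locus), 3817 bp (GLI3 locus) and 3711 bp (HHIP locus) stand well above the bands. So does the opened site of 3644 bp in the GLI2 locus, and most other sites lie in or near the bands.

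Neighbouring sites were also compared by list. Within the loci 29 of 49 neighbouring pairs (59.2%) came from the same list, beside 61.5% of 14168 pairs over all chromosomes. The share was 71.4% in the SHH locus (10 of 14 pairs) and 52.9% in the GAS1 locus (9 of 17). It depends on how many sites of each list a locus holds. SHH held 13 opened and 2 p63-closed sites, and GAS1 5 and 13. Order beyond those counts was not tested. Another site of the same list lay within 50 kb of 51.9% of opened members (95% interval 32.0 to 71.3%) and of 46.4% of p63-closed members (27.5 to 66.1%). Over all listed sites these were 40.3% and 41.8%, inside both intervals. At 20 kb the members stood further from the lists, with 44.4% of opened members (25.5 to 64.7%) beside 22.7% of the list and 42.9% of p63-closed members (24.5 to 62.8%) beside 23.9%. These list values lie under the members' intervals, narrowly so for p63-closed sites. Such intervals treat sites as independent, although both sites of a close pair are counted. The loci were also proposed with their counts in view. Their densities were 1.71-fold (opened) and 2.40-fold (p63-closed) those of all chromosomes, and nearness beyond that density was not tested for either list. A site of the other list lay within 50 kb of 44.4% of opened members (25.5 to 64.7%), beside 22.0% over the list, and of 35.7% of p63-closed members (18.6 to 55.9%), beside 28.9%. Of the 12 opened members with such a neighbour, 4 were in the SHH locus and 4 in the GAS1 locus.

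In 2 loci a listed site lay within a few kb outside the interval. Besides the opened site next to the HHIP interval, an opened site at chr7:154994708-154997671 has its centre 3.81 kb before the SHH interval, and the first member there lies 9.96 kb from it. In the other loci the nearest listed site outside was 38.6 kb or more from the edge.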

How the data were processed

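The 2 deposited lists give the start and end of each site in base pairs and a numbered site name. They hold no count, signal or p-value, so depth is unknown and no value per sample or culture was analysed. Per the submitters' processing notes, FastQC, Bowtie2, SAMtools, MACS2 and DESeq2 were used by the authors, with the builds hg19 and GRCh37. Which tool did what, its version, its thresholds and whether replicates were pooled is not given in the sources used here.

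A site was placed in a locus when its centre fell in the interval of the rule. Intervals at 95% cover counting error only and are exact, by Clopper-Pearson for a share and by Poisson for a density. Site numbers run along each chromosome, at a median of 1 per 1495 bp, and served as catalogue entries. At 6 places where the numbering jumps, entries were estimated from distance. Whole windows of each interval's length were laid end to end along all chromosomes, assembly gaps included. The members, lists and settings were chosen with earlier results of these lists known. The rule for named sites took the first and last of a locus, the widest, the closest pairs and the longest run of 1 list; since it left few out, all 55 are named, the rest after their values were seen. With no hg19 genome or annotation used here, sequences, motifs, gene positions and the planned list of other pathway genes were not analysed. RefSeq symbols of GRCh38.p14 gave neighbouring genes by name for 5 loci; those of HHIP are not reported here. Counting was tested on simulated data. Tools were Python 3.11.15, numpy 2.4.6, pandas 2.3.3, scipy 1.17.1 and matplotlib 3.10.9.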

Additional observations from a re-analysis of the deposited data

How the results depend on the processing

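No paired analysis was possible because neither list has a value for any sample, which also means that no setting leaves out a replicate. Of 121 alternative values, 111 stayed within 1.5 times the count or within the 95% interval, and 10 moved. With so few sites the intervals are wide, so the tally is no measure of stability. Intervals narrowed by 100 kb on each side left 1 p63-closed site for SHH, and 0 opened and 2 p63-closed sites (100%) for HHIP. Widening by 100 kb gave HHIP 5 opened and 4 p63-closed sites, so that opened sites led there. Joining sites of 1 list within 10 kb left 3 p63-closed sites for GLI3. Leaving out the SHH locus moved the p63-closed share of the loci to 65.0%, and leaving out chromosome X moved that of all listed sites to 43.6%. Without its wider site GLI2 has 1 site, of 808 bp. At 100 kb, 77.8% of opened members had another opened site near (95% interval 57.74 to 91.4%). The list value, 57.68%, lies barely under that interval. For p63-closed members the share was 64.3% (44.1 to 81.4%), beside 57.2% of their list, which lies inside the interval. Motifs and distances to gene starts were not run, since neither sequence nor genes of hg19 were used here. The depth is not known, so an empty stretch is not shown to be closed or unchanged.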
